A study of Mus musculus with 12 samples.

Results

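Transcript levels of gastrocnemius, liver and gonadal white adipose tissue (WAT) were compared pairwise in mice that received neither glucocorticoid nor Cre. The comparison used 3 of the 12 RNA-seq libraries of the study, 1 for each tissue. Each library was made from RNA pooled from 3 male GRf/f mice on a C57BL/6J background, which carry the glucocorticoid receptor gene *Nr3c1* with loxP sites around an early coding exon but no Cre transgene, so that the receptor is intact in every tissue. From 8 weeks of age they drank vehicle, 1% ethanol in water, for 4 weeks. The other 9 libraries came from GRf/f mice given corticosterone (CORT) and from GRmKO mice, in which a Cre transgene under the skeletal actin promoter deletes the receptor in muscle, given vehicle or CORT. Whether the 3 tissues of a group were taken from the same mice was not stated. Members of the comparison were the 18508 of 22249 gene symbols shared by the 3 libraries for which the same transcript had been kept in each, and 11895 of them reached 1 count-per-million (CPM) in at least 1 library. The remaining 3741 symbols were represented by different transcripts in different tissues and were not compared.

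Gastrocnemius is a hindlimb muscle made mostly of fast fibres, which store glycogen, burn it through glycolysis and buffer ATP with phosphocreatine. Liver secretes most plasma proteins, makes glucose between meals and disposes of nitrogen and cholesterol. White adipocytes take up or synthesize fatty acids, store them as triglyceride in a lipid droplet, release them on adrenergic stimulation, and secrete hormones such as adiponectin and leptin. Glucocorticoids, thyroid hormone, insulin, glucagon and growth hormone reach these tissues through the blood, and each tissue can respond only through the receptors it expresses. Many steps of metabolism are carried out by isozymes, products of separate genes that catalyse the same reaction in different tissues.

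The promoters of 3 genes that mark the tissues are shown because the lists they head moved together between tissues. *Acta1* encodes skeletal muscle actin (chromosome 8, 123891769 to 123894751, minus strand), *Alb* encodes serum albumin (chromosome 5, 90460897 to 90476602, plus strand) and *Adipoq* encodes adiponectin (chromosome 16, 23146536 to 23158028, plus strand), all on mouse build GRCm38. The 250 bases before the RefSeq transcription start (GRCm38.p6) are given 5′ to 3′ on the strand of the gene, at chr8:123894776-123895025, chr5:90460620-90460869 and chr16:23146286-23146535. Capitals mark matches on either strand to the TATA box motif TATAAA, to the CCAAT box, to the E-box CAGCTG (the kind of site bound by MyoD), to GTTAAT (one side of the site bound by HNF1) and to the CArG box bound by serum response factor.
Acta1: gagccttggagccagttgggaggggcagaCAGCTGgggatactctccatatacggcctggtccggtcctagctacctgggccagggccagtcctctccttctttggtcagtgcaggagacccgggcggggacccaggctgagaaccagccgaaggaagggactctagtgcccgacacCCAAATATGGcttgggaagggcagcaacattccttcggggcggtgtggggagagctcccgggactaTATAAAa
Alb: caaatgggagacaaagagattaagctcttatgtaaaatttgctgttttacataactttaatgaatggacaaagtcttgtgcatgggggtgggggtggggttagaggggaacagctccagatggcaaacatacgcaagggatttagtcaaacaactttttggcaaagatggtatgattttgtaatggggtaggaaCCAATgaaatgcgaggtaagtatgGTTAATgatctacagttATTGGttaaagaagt
Adipoq: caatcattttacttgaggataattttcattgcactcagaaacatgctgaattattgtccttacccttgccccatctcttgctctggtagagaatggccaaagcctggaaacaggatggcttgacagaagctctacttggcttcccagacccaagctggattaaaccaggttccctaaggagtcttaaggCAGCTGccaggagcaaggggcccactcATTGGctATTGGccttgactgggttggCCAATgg
In these windows *Acta1* held 1 CArG box, 1 TATAAA and 1 CAGCTG, *Alb* held 1 GTTAAT and 2 CCAAT, and *Adipoq* held 3 CCAAT and 1 CAGCTG. The GTTAAT of *Alb* began 32 bases before the start and the CArG box of *Acta1* began 73 bases before it. The TATAAA of *Acta1* began 7 bases before the RefSeq start, which itself lies 24 bases before the start of the transcript kept in these data. Over all 32851 promoters in the table, TATAAA occurred in 12.4%, CCAAT in 33.8%, CAGCTG in 13%, GTTAAT in 6.43% and the CArG box in 1.47%. A promoter was matched for 12 of the 17 muscle fibre genes, 21 of the 30 hepatocyte genes and 8 of the 13 adipocyte genes described next. CAGCTG was present in 6 of the 12 muscle, 0 of the 21 hepatocyte and 1 of the 8 adipocyte promoters, and GTTAAT in 0, 6 and 0 of them. In the same order, the CArG box was present in 1, 1 and 0, TATAAA in 2, 7 and 0, and CCAAT in 6, 10 and 2. These are matches of letters and were not tested as binding sites.

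The libraries held 19833928 counts for gastrocnemius, 20940660 for liver and 19957071 for WAT. A transcript level is given as CPM, the count divided by the library total, with 95% Wilson intervals where printed, and a ratio of 2 tissues is a ratio of CPM with a 95% exact (Clopper-Pearson) interval. Both intervals cover counting error only. Since each tissue had 1 library, there is no replicate error and no test of these differences, and a gene was counted as different at 4-fold or more, computed on CPM plus 0.5. The smallest share such a library can show was set at 3 counts, 0.143 to 0.151 CPM, and a ratio over a library with no count is given as a lower bound against that value. As a guide to the spread between pools, the GRf/f and GRmKO vehicle pools of the same tissue differed by less than 2.17-fold in gastrocnemius, 1.67-fold in liver and 1.64-fold in WAT for 95% of the genes at 1 CPM or more, and 0.954%, 0.601% and 0.526% of these genes were 4-fold apart. These pools differ in genotype, so the guide includes the effect of losing the receptor in muscle.

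The RNA of the 3 tissues was concentrated in few genes to different degrees. A few transcripts took up much of the liver and muscle RNA, with 27.1% of liver and 32.2% of gastrocnemius counts in the 10 most abundant transcripts against 22.5% in WAT, and mitochondrially encoded transcripts held 26.0% of gastrocnemius, 19.1% of liver and 17.5% of WAT counts. The median log2 difference over all 11895 genes was 0.57 for gastrocnemius minus liver, -0.70 for gastrocnemius minus WAT and -1.17 for liver minus WAT. When the libraries were scaled to set the typical gene level instead (TMM factors), ratios of gastrocnemius over liver fell 1.52-fold, those of WAT over gastrocnemius fell 1.66-fold and those of WAT over liver fell 2.52-fold. Differences smaller than these in those directions therefore reversed with the scaling and are given below as values only. A difference of 4-fold or more could not reverse, since TMM factors move all genes of a pair alike, by at most 2.52-fold. Of the 810 pairwise 4-fold differences of named genes, 99 fell below 4-fold with TMM factors. Genes described below as even or level are so in CPM, and TMM factors shift them like the others. Lists with moderate differences of WAT over liver were among the most affected, and the count with TMM factors is given beside the main one for some of the lists it moves.

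**Figure D1:**
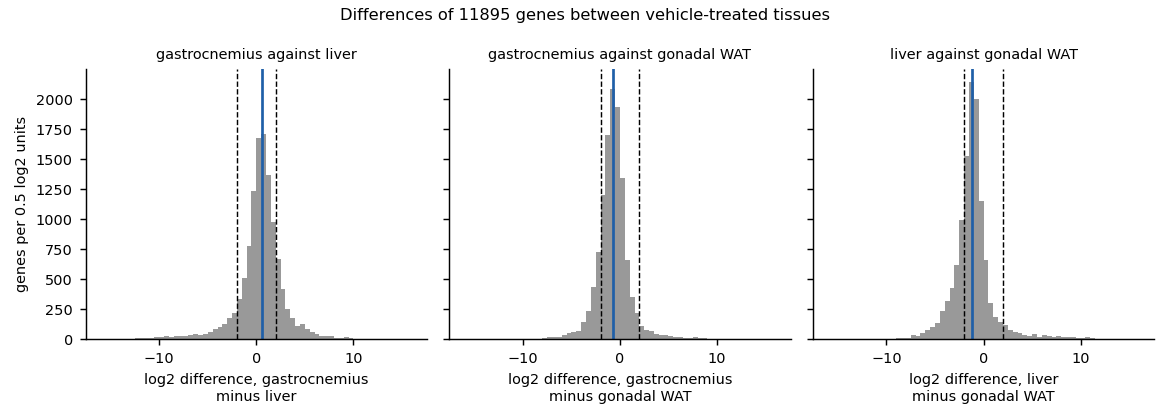
Histograms of the log2 difference in CPM (0.5 added) of 11895 genes for each pair of vehicle-treated tissues, in bins of 0.5 log2 units. The blue line is the median of all genes (0.57, -0.70 and -1.17) and the dashed lines mark a 4-fold difference in each direction.

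Between gastrocnemius and liver, 2121 genes (17.8% of those counted) were at least 4-fold higher in gastrocnemius and 1181 (9.93%) in liver, 27.8% in all. Between gastrocnemius and WAT, 544 genes (4.57%) were higher in gastrocnemius and 1845 (15.5%) in WAT, 20.1% in all, and between liver and WAT, 692 (5.82%) were higher in liver and 3091 (26.0%) in WAT, 31.8% in all. With TMM factors the same pairs split 1584 to 1594, 800 to 934 and 1148 to 1435. Genes at least 4-fold above both other tissues numbered 466 (3.92%) in gastrocnemius, 609 (5.12%) in liver and 978 (8.22%) in WAT, and 586, 938 and 378 with TMM factors. Genes at least 4-fold below both numbered 479 (4.03%), 1348 (11.3%) and 50 (0.42%). No pair of tissues was 4-fold apart for 6351 genes (53.4%). The 466 gastrocnemius genes made up 22.8% of all gastrocnemius counts, the 609 liver genes 42.2% of liver counts and the 978 WAT genes 24.7% of WAT counts. Of the genes 4-fold apart in a pair, 98.1%, 97.7% and 98.9% had the same direction in the GRmKO vehicle libraries for gastrocnemius against liver, gastrocnemius against WAT and liver against WAT, and 80.9%, 63.2% and 85.6% were again 4-fold apart. Over all 12 libraries, the 4 libraries of the tissue lay above all 8 libraries of the other tissues for 93.8% of the gastrocnemius set, 96.9% of the liver set and 89.8% of the WAT set, against 10.8%, 8.83% and 39.0% of all genes counted. The GRf/f vehicle libraries that defined the sets are among these 12, which favours the sets over all genes in advance.

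Genes of the contractile apparatus separated gastrocnemius from both other tissues. All 17 muscle fibre genes that could be compared were at least 4-fold higher in gastrocnemius than in liver and in WAT, against 3.92% of all genes. *Acta1* was at 43035 CPM in gastrocnemius, 0.430 in liver and 37.4 in WAT (95% interval in gastrocnemius 42946 to 43124). This is 853554 counts against 9 in liver, a ratio over WAT of 1149.7 (1070.1 to 1237). *Atp2a1*, the calcium pump of the sarcoplasmic reticulum in fast fibres, followed at 27403 CPM in gastrocnemius, 0.334 in liver and 3.01 in WAT. *Myl1*, a myosin light chain, was at 9937 CPM in gastrocnemius, 0 in liver and 40.5 in WAT. *Pvalb*, the calcium buffer parvalbumin that fast fibres use to relax, stood at 8381 CPM in gastrocnemius, 0.0476 in liver and 0.991 in WAT. Titin (*Ttn*), the giant spring of the sarcomere, was at 4681 CPM in gastrocnemius, 0 in liver and 0.305 in WAT. The whole list summed to 132393 CPM in gastrocnemius, 8.58 in liver and 132 in WAT, and its median log2 difference was 12.75 over liver (13.31 with genes at 0 set to their bound) and 10.87 over WAT. In WAT, 10 of the 17 genes were under 1 CPM, and most of the sum came from *Acta1*, *Myl1* and the intermediate filament gene *Des* (39.9 CPM in WAT). Genes of fast and slow fibres were at unequal levels within gastrocnemius. Per kilobase of transcript, the fast genes *Tnni2* and *Actn3* were at 8267 and 2475 CPM, the type IIa myosin *Myh2* at 232 and the slow myosin *Myh7* at 29.3. *Tnni2* and *Actn3* do not encode myosins, so only *Myh2* and *Myh7* compare like with like. The level of *Myh7* in the GRmKO vehicle library was 393 CPM against 179.5 CPM in GRf/f. A further 15 muscle genes, among them *Ckm*, *Mb*, *Myh1*, *Myh4*, *Tpm1* and *Tnnt3*, had different transcripts in different tissues and were left out.

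Plasma proteins and liver enzymes set liver apart almost as completely. Of 30 hepatocyte genes, 27 were at least 4-fold higher in liver than in both other tissues, against 5.12% of all genes. *Alb* was at 4.13 CPM in gastrocnemius, 49853 in liver and 44.7 in WAT, and its 95% interval in liver ran from 49760.3 to 49947. *Serpina1c*, an antitrypsin gene with near-identical neighbours that may share its reads, was at 0.733 CPM in gastrocnemius, 12319 in liver and 3.81 in WAT. *Ahsg*, the plasma glycoprotein fetuin A, was at 0.528 CPM in gastrocnemius, 7581 in liver and 2.30 in WAT. *Cyp7a1*, the rate-limiting enzyme of bile acid synthesis, was at 121 CPM in liver and had no count in the other libraries. The list summed to 129 CPM in gastrocnemius, 137368 in liver and 10929 in WAT. The median log2 difference was -11.38 for gastrocnemius minus liver (-11.76 with genes at 0 at their bound) and 10.40 for liver minus WAT.
The 3 genes that were not specific to liver were shared with WAT. *Cyp2e1*, a cytochrome that oxidizes ethanol, was at 39.0 CPM in gastrocnemius, 8738 in liver and 5630.5 in WAT. Transferrin (*Trf*), the iron carrier of plasma, was at 37.1 CPM in gastrocnemius, 6369 in liver and 2990.4 in WAT. Haptoglobin (*Hp*), which binds free haemoglobin, was at 14.6 CPM in gastrocnemius, 1285 in liver and 2209 in WAT, and its order between liver and WAT reverses with TMM factors. In each case WAT exceeded gastrocnemius, by 144-fold (134 to 155) for *Cyp2e1*, 80.6-fold (74.9 to 86.8) for *Trf* and 152-fold (135 to 171) for *Hp*. The other 27 genes were far lower in WAT, where *Alb* (44.7 CPM) and *Vtn* (26.6 CPM) were the only ones over 5 CPM. In gastrocnemius, *Alb* was at 4.13 CPM in the GRf/f library and 56.4 CPM in the GRmKO library, and the hepatocyte list summed to 129 and 271 CPM. Their part in other results was not tested.

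Adipocyte genes were highest in WAT, and several were also present in the other tissues. Of 13 genes, 12 were at least 4-fold above both other tissues, against 8.22% of all genes. Adiponectin (*Adipoq*) was at 14.6 CPM in gastrocnemius, 0 in liver and 3792 in WAT (95% interval in WAT 3765 to 3819), which is 259-fold (231 to 292) above gastrocnemius and at least 26466-fold above liver. Leptin (*Lep*), the satiety hormone, was at 2.01 CPM in gastrocnemius, 0 in liver and 722 in WAT. Perilipin 1 (*Plin1*), which coats the lipid droplet, was at 13.6 CPM in gastrocnemius, 0.0478 in liver and 2402 in WAT. Resistin (*Retn*) was at 5.93 CPM in gastrocnemius, 0 in liver and 1521 in WAT. Other members had appreciable levels in gastrocnemius or liver. Lipoprotein lipase (*Lpl*), which frees fatty acids from plasma triglyceride, was at 719 CPM in gastrocnemius, 27.7 in liver and 13359.6 in WAT. *Fabp4*, a fatty acid carrier also found in capillary endothelium, was at 136 CPM in gastrocnemius, 6.27 in liver and 11458 in WAT. Carbonic anhydrase 3 (*Car3*) was at 2718 CPM in gastrocnemius, 3134 in liver and 31655 in WAT. *Thrsp*, a lipogenic nuclear protein, was at 18.8 CPM in gastrocnemius, 226 in liver and 1119 in WAT. The exception was *Slc2a4*, the insulin-regulated glucose transporter GLUT4, at 729.7 CPM in gastrocnemius, 0.239 in liver and 281 in WAT. The median log2 difference of the list was -6.39 for gastrocnemius minus WAT and -8.57 for liver minus WAT, and 2.33 for gastrocnemius minus liver (3.81 with genes at 0 at their bound). *Pparg*, *Cidec*, *Plin4*, *Cfd*, *Aqp7*, *Nnat* and *Adig* were not compared because the kept transcripts differed.

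**Figure D2:**
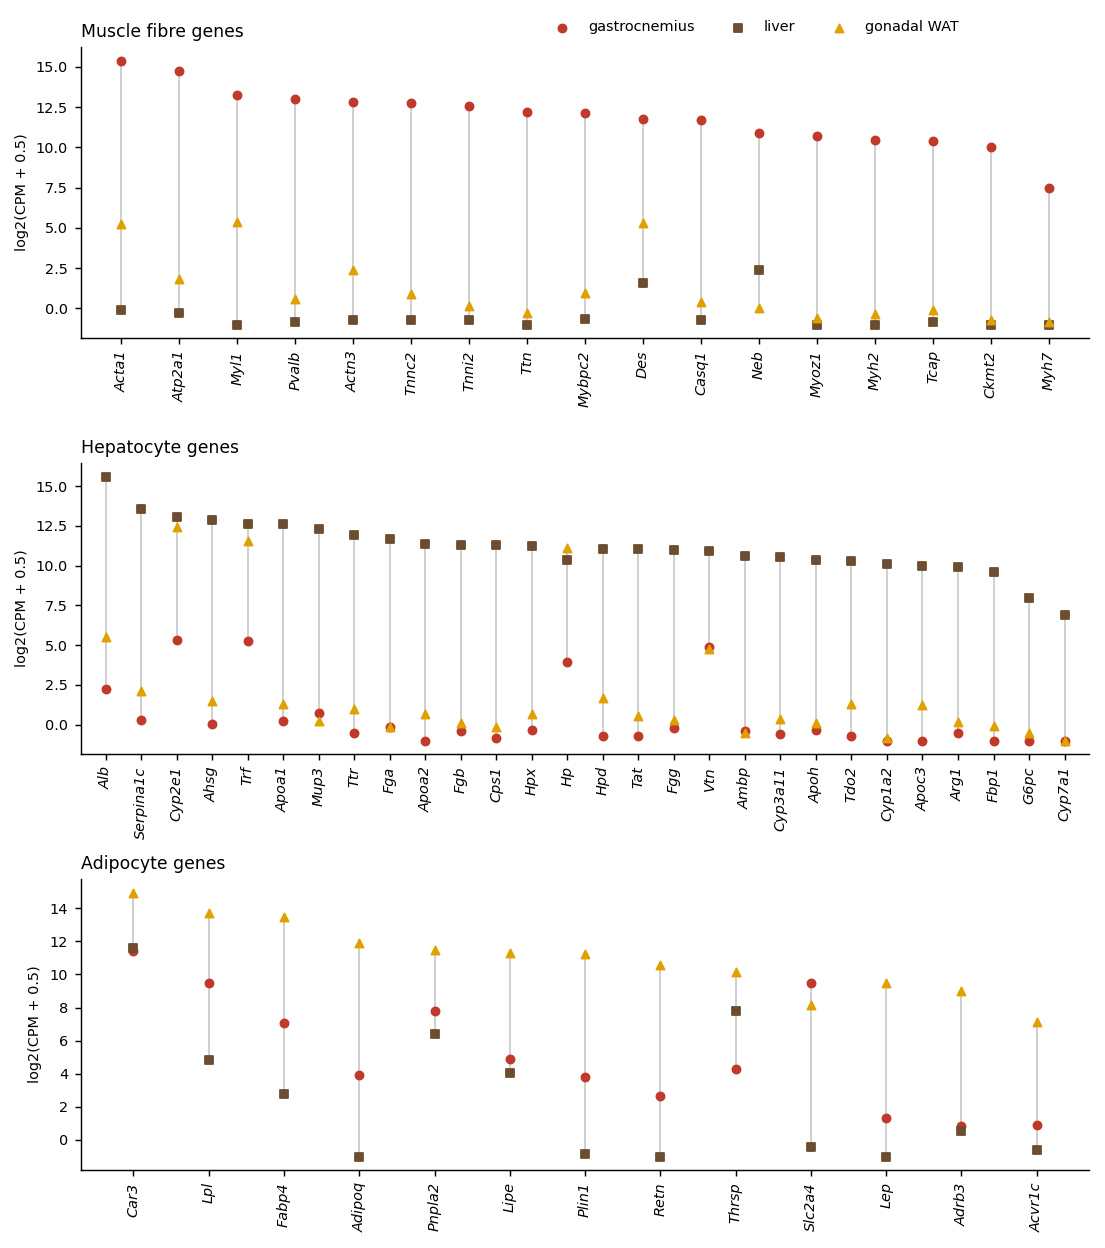
Levels of 17 muscle fibre, 28 hepatocyte and 13 adipocyte genes, as log2(CPM + 0.5), in the vehicle-treated GRf/f library of each tissue (1 point per library, grey line from lowest to highest). Muscle fibre genes are highest in gastrocnemius, hepatocyte genes in liver except Hp (whose order reverses with TMM factors), and adipocyte genes in WAT except Slc2a4.

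Transcription factors of these lineages were also divided among the tissues. Of 23 that could be compared, 7 were 4-fold above both other tissues in gastrocnemius, 7 in liver and 2 in WAT, against 3.92%, 5.12% and 8.22% of all genes, so that the count in WAT was at the background (1 with TMM factors). *Myod1* and *Myf6*, which commit and maintain muscle cells, were at 36.1 and 115 CPM in gastrocnemius and had no count in liver or WAT. *Tbx15*, a T-box factor of fast muscle and of some fat depots, was at 199 CPM in gastrocnemius, 0.0478 in liver and 0.251 in WAT. In liver, *Foxa3*, *Onecut1* and *Onecut2*, factors of the hepatocyte lineage, were at 34.5, 24.9 and 27.7 CPM and had no count elsewhere. *Prox1* was at 4.62 CPM in gastrocnemius, 83.5 in liver and 1.55 in WAT. In WAT, *Ebf1*, which acts early in adipocyte differentiation, was at 23.5 CPM in gastrocnemius, 0.335 in liver and 193 in WAT, and *Gata6* was at 0.603 CPM in gastrocnemius, 5.11 in liver and 25.5 in WAT. *Cebpa*, which acts in both liver and fat, was at 13.7 CPM in gastrocnemius, 391 in liver and 1111 in WAT, 28.5-fold (25.3 to 32.3) higher in liver than in gastrocnemius. Its relatives were flatter, with *Cebpb* at 114 CPM in gastrocnemius, 167 in liver and 83.1 in WAT.

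Markers of other cell types also moved between the tissues, and in bulk RNA more cells of a type cannot be told apart from more RNA per cell. Collagen and fibroblast genes were low in liver. All 9 were at least 4-fold lower in liver than in both other tissues, 7 with TMM factors, against 11.3% of all genes. *Col1a1* was at 399 CPM in gastrocnemius, 6.69 in liver and 355 in WAT, and *Fbn1*, the microfibril protein fibrillin, was at 101 CPM in gastrocnemius, 0.858 in liver and 185 in WAT. Of 8 endothelial genes, 1 (*Cldn5*) was 4-fold above both others in WAT against 8.22% of all genes, and 5 were 4-fold below both others in liver against 11.3% (2 with TMM factors). *Cdh5*, the cadherin of endothelial junctions, was at 152 CPM in gastrocnemius, 22.4 in liver and 306 in WAT. Of 9 macrophage genes, 4 were 4-fold above both other tissues in WAT, against 8.22% of all genes, and 0 with TMM factors. The lysozyme gene *Lyz2* was at 66.2 CPM in gastrocnemius, 45.6 in liver and 436 in WAT, but at 264 CPM in the GRmKO gastrocnemius library, and the macrophage list summed to 171 CPM in GRf/f and 557 in GRmKO gastrocnemius. *Clec4f*, a lectin of Kupffer cells, the resident macrophages of liver, was at 49.5 CPM in liver and had no count in the other libraries. Mesothelial genes marked WAT, a depot with a serous surface. All 5 were 4-fold above both other tissues there, against 8.22% of all genes. Among them, *Upk3b* was at 0 CPM in gastrocnemius, 2.77 in liver and 155 in WAT. Of 6 erythroid genes, the 4 globins were 4-fold above both others in WAT, against 8.22% of all genes, but 0 were with TMM factors. *Hbb-bs* was at 277 CPM in gastrocnemius, 344 in liver and 1515 in WAT. The WAT libraries among all 12 did not all lie above the others for the globins, which are near-identical pairs that may share reads. *Alas2*, the first enzyme of haem synthesis in red cells, had another order, at 3.42 CPM in gastrocnemius, 89.9 in liver and 26.2 in WAT. Of the 8 lymphocyte markers compared, the highest was *Cd79a* at 4.81 CPM in WAT. *Ighm*, the heavy chain of IgM, was listed at 61.7 CPM in gastrocnemius, 3.77 in liver and 315 in WAT but was not compared because the kept transcripts differed. Of 9 markers of epididymis and testis, organs that lie next to the gonadal depot, 8 were under 1 CPM in every library and *Adam7* reached 1.10 CPM in WAT. In gastrocnemius, *Chrna1* of the neuromuscular junction was at 18.6 CPM and *Pax7* of satellite cells at 4.74 CPM, with 103 and 6.79 CPM in the GRmKO library. The share of these cells in any result below was not tested.

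Genes for the uptake of glucose differed by tissue. *Slc2a4* was the main measured transporter of gastrocnemius and WAT, and *Slc2a2*, the low-affinity transporter GLUT2, that of liver, at 0 CPM in gastrocnemius, 258 in liver and 0.351 in WAT. Among the transporters *Slc2a1*, *Slc2a2* and *Slc2a4*, taken per kilobase of transcript, *Slc2a4* held 98.9% in gastrocnemius and 97.5% in WAT, and *Slc2a2* held 95.9% in liver. Hexokinase 2 (*Hk2*), which traps glucose as its phosphate in insulin-responsive tissues, was at 272 CPM in gastrocnemius, 0.335 in liver and 121 in WAT. Glucose-6-phosphatase (*G6pc*), the last step in glucose release, was at 247 CPM in liver and 0.2004 CPM in WAT.

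Glycogen genes differed mostly by isozyme. Of 18 glycogen genes, 8 were 4-fold above both other tissues in gastrocnemius, 1 in liver and 1 in WAT, against 3.92%, 5.12% and 8.22% of all genes. Glycogen synthase of muscle (*Gys1*) was at 553 CPM in gastrocnemius, 1.67 in liver and 205 in WAT and that of liver (*Gys2*) at 0.201 CPM in gastrocnemius, 280.1 in liver and 19.5 in WAT. Per kilobase, *Gys1* made up 99.9% of the pair in gastrocnemius, 0.429% in liver and 88.4% in WAT. The phosphorylases that break glycogen down were divided in 3. The muscle form *Pygm* was at 8461 CPM in gastrocnemius, 1.24 in liver and 2.71 in WAT. The liver form *Pygl* was at 3.07 CPM in gastrocnemius, 315 in liver and 207 in WAT. The brain form *Pygb* was at 10.6 CPM in gastrocnemius, 3.25 in liver and 408 in WAT, 38.7-fold (33.7 to 44.6) higher in WAT than in gastrocnemius. Per kilobase, *Pygb* held 58.4% and *Pygl* 41.0% of phosphorylase in WAT. Subunits of phosphorylase kinase, which switches the phosphorylases on, also differed by isoform. *Phka1* and *Phkg1* made up 97.8% and 97.7% of their pairs in gastrocnemius and 16.4% and 0% in liver. *Ppp1r3a*, the subunit that ties a phosphatase to muscle glycogen, was at 433 CPM in gastrocnemius, 0.0478 in liver and 0.301 in WAT. *Gbe1*, the branching enzyme, was within 4-fold in all pairs, at 49.4 CPM in gastrocnemius, 97.9 in liver and 118 in WAT. The list median was 3.73 on the log2 scale for gastrocnemius minus liver, beside 0.57 for all genes.

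Glycolysis likewise used different isozymes. Of 13 genes, 4 were 4-fold above both others in gastrocnemius (*Gapdh*, *Gpi1*, *Pgam2* and *Eno3*), 1 in liver and 1 (*Pfkl*) in WAT, against 3.92%, 5.12% and 8.22% of all genes, so that the counts in liver and WAT were near the background. Phosphoglycerate mutase was *Pgam2* in muscle (2092 CPM in gastrocnemius, 0.191 in liver and 0.603 in WAT) and *Pgam1* elsewhere (25.3 CPM in gastrocnemius, 165 in liver and 264 in WAT). Enolase was *Eno3* in muscle (2766 CPM in gastrocnemius, 1.29 in liver and 6.08 in WAT) and *Eno1* elsewhere (84.9 CPM in gastrocnemius, 380.1 in liver and 776 in WAT). Per kilobase, the muscle forms made up 99.4% and 97.8% of these pairs in gastrocnemius and under 2% in liver and WAT. *Gapdh*, often used as a reference gene, was at 6324 CPM in gastrocnemius, 1144 in liver and 1249 in WAT. Lactate dehydrogenase A (*Ldha*) was at 2020.1 CPM in gastrocnemius, 369.6 in liver and 917 in WAT, and the heart form *Ldhb* at 193 CPM in gastrocnemius and 80.3 in WAT. *Pfkm*, *Pkm*, *Aldoa* and *Pfkfb3* were not compared because their kept transcripts differed.

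**Figure D3:**
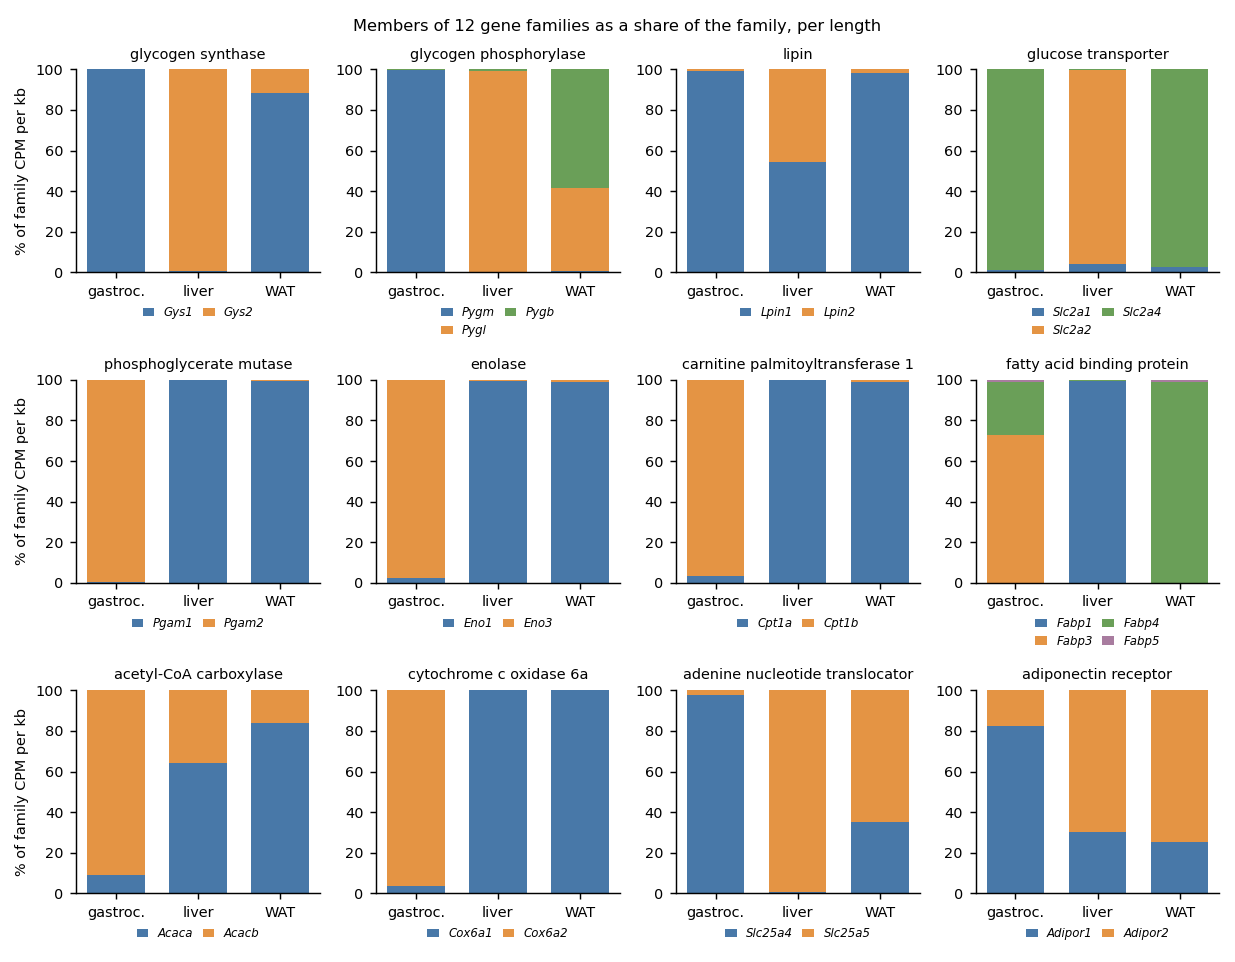
Share of each member in the CPM per kilobase of its family, in percent, for 12 families in vehicle-treated gastrocnemius (gastroc.), liver and WAT, with 1 library per bar. In glycogen synthase, phosphoglycerate mutase, enolase, carnitine palmitoyltransferase 1 and cytochrome c oxidase 6a the leading member of gastrocnemius is a minor one in liver.

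Genes for making glucose were divided among the tissues, and those for handling nitrogen were mostly highest in liver. Of 10 genes of gluconeogenesis, 3 were 4-fold above both others in liver, 1 in gastrocnemius and 0 in WAT, against 5.12%, 3.92% and 8.22% of all genes, and the list median was 0.17 for liver minus WAT on the log2 scale. *Pck1*, which makes phosphoenolpyruvate for both glucose and glyceride synthesis, was at 7.24 CPM in gastrocnemius, 2563 in liver and 2751 in WAT, and 353-fold (299.7 to 419) higher in liver than in gastrocnemius. Its order between liver and WAT reverses with TMM factors. Pyruvate carboxylase (*Pcx*) was at 77.4 CPM in gastrocnemius, 312 in liver and 981 in WAT. Fructose bisphosphatase was *Fbp1* in liver (0 CPM in gastrocnemius, 783 in liver and 0.451 in WAT) and *Fbp2* in muscle (30.3 CPM in gastrocnemius, 0.0477 in liver and 0.802 in WAT). The cytosolic transaminase *Got1* and its mitochondrial partner *Got2*, which work in the malate-aspartate shuttle, were low in WAT. *Got1* was at 345 CPM in gastrocnemius, 248 in liver and 6.56 in WAT and *Got2* at 548 CPM in gastrocnemius, 554 in liver and 59.5 in WAT. Alanine transaminase 2 (*Gpt2*) was among the most even genes, at 323 CPM in gastrocnemius, 348 in liver and 346 in WAT.
All 7 urea cycle genes were 4-fold above both other tissues in liver, against 5.12% of all genes, and the list median was -9.79 for gastrocnemius minus liver and 9.24 for liver minus WAT on the log2 scale. *Cps1*, which fixes ammonia, was at 0.0502 CPM in gastrocnemius, 2522 in liver and 0.401 in WAT, and *Otc*, the next enzyme, was at 497 CPM in liver with no count elsewhere. Of 16 genes of amino acid breakdown, 8 were 4-fold above both others in liver, 0 in gastrocnemius and 0 in WAT, against 5.12%, 3.92% and 8.22% of all genes. Tyrosine transaminase (*Tat*), a classical glucocorticoid target, was at 0.101 CPM in gastrocnemius, 2139.9 in liver and 0.952 in WAT. Glutamine synthetase (*Glul*) was at 464 CPM in gastrocnemius, 1016 in liver and 1793 in WAT. Enzymes for branched-chain amino acids were more even, with *Bckdha* at 105 CPM in gastrocnemius, 211 in liver and 226 in WAT and *Dbt* at 27.7 CPM in gastrocnemius, 79.2 in liver and 100.2 in WAT, while the kinase that switches this complex off, *Bckdk*, was at 107 CPM in gastrocnemius, 7.45 in liver and 58.2 in WAT.

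Genes of fat synthesis and storage were mostly highest in WAT. Of 15 genes of fatty acid synthesis, 6 were 4-fold above both others in WAT, 1 in liver and 0 in gastrocnemius, and 6 were 4-fold below both others in gastrocnemius, against 8.22%, 5.12%, 3.92% and 4.03% of all genes. With TMM factors the count in WAT was 2 and that in liver 2, and *Scd1* was then less than 4-fold higher in WAT than in liver. *Scd1*, which introduces the double bond of oleate, was the most abundant of the 978 genes that stood above both other tissues in WAT, at 181 CPM in gastrocnemius, 6233 in liver and 33087 in WAT. It was 5.31-fold (5.28 to 5.34) higher in WAT than in liver. Fatty acid synthase (*Fasn*) was at 31.5 CPM in gastrocnemius, 81.2 in liver and 3627 in WAT, a ratio of 44.7 (42.6 to 46.9) of WAT over liver. The acetyl-CoA carboxylases were exchanged. *Acaca*, which feeds fatty acid synthesis, was at 24.4 CPM in gastrocnemius, 53.0 in liver and 955 in WAT, and *Acacb*, whose product restrains oxidation at the mitochondrion, at 225 CPM in gastrocnemius, 27.6 in liver and 173 in WAT. Per kilobase, *Acaca* was 9.23% of the pair in gastrocnemius, 64.4% in liver and 83.8% in WAT. The desaturase *Fads2*, which acts on polyunsaturated fatty acids, was instead a liver gene, at 4.23 CPM in gastrocnemius, 258 in liver and 12.03 in WAT. The list median was -2.86 for gastrocnemius minus WAT and -2.31 for liver minus WAT, beside -0.70 and -1.17 for all genes. Between GRf/f and GRmKO vehicle pools of the same tissue, *Fasn* ranged from 81.2 to 241 CPM in liver and from 3627 to 2111 CPM in WAT.

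Of 17 genes of triglyceride synthesis and lipid droplets, 7 were 4-fold above both others in WAT (4 with TMM factors), 3 in liver and 1 in gastrocnemius, against 8.22%, 5.12% and 3.92% of all genes. *Dgat2*, which adds the last acyl chain, was at 45.7 CPM in gastrocnemius, 529.2 in liver and 2464 in WAT, and its partner *Dgat1* at 8.96 CPM in gastrocnemius, 13.4 in liver and 262 in WAT. *Agpat2*, which acts earlier in the pathway, was at 8.22 CPM in gastrocnemius, 139 in liver and 758 in WAT. The lipins differed, with *Lpin1* at 500.4 CPM in gastrocnemius, 228 in liver and 604 in WAT and *Lpin2* at 3.67 CPM in gastrocnemius, 197 in liver and 9.97 in WAT. Liver was 4-fold above both others in *Mttp*, which loads lipid onto lipoproteins (2.68 CPM in gastrocnemius, 225 in liver and 3.44 in WAT), and *Cideb* (0 CPM in gastrocnemius, 205 in liver and 0.115 in WAT). *Fitm1* was the muscle gene of this group, at 206 CPM in gastrocnemius, 32.5 in liver and 0.150 in WAT.
Lipolysis genes were concentrated in WAT. Of 12 genes of lipolysis and lipases, 9 were 4-fold above both others in WAT (5 with TMM factors), against 8.22% of all genes, and the list median was -4.27 for gastrocnemius minus WAT and -3.26 for liver minus WAT. *Pnpla2*, the first triglyceride lipase, was at 224 CPM in gastrocnemius, 82.6 in liver and 2803 in WAT. Hormone-sensitive lipase (*Lipe*) was at 29.2 CPM in gastrocnemius, 16.0 in liver and 2557 in WAT, and monoglyceride lipase (*Mgll*) at 83.6 CPM in gastrocnemius, 154 in liver and 1695 in WAT. *G0s2*, an inhibitor of *Pnpla2*, was also highest in WAT, at 9.41 CPM in gastrocnemius, 38.8 in liver and 367 in WAT. *Pnpla3* was at 2.47 CPM in gastrocnemius, 0 in liver and 177 in WAT. The liver members were *Ces3a* at 0 CPM in gastrocnemius, 1747 in liver and 0.301 in WAT and endothelial lipase (*Lipg*) at 0.151 CPM in gastrocnemius, 17.8 in liver and 1.70 in WAT.

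Fatty acid carriers differed by isoform. Of 14 uptake and binding genes, 4 were 4-fold above both others in liver, 4 in WAT and 1 in gastrocnemius, against 5.12%, 8.22% and 3.92% of all genes. *Fabp1* was the liver form (0.307 CPM in gastrocnemius, 2757 in liver and 0.351 in WAT), *Fabp3* the muscle form (343 CPM in gastrocnemius, 0 in liver and 0.425 in WAT) and *Fabp4* the adipocyte form. Per kilobase, among *Fabp1*, *Fabp3*, *Fabp4* and *Fabp5*, *Fabp1* held 99.6% in liver and *Fabp4* 98.9% in WAT, while in gastrocnemius *Fabp3* held 72.5% and *Fabp4* 26.4%. *Cd36*, a fatty acid receptor, was at 96.9 CPM in gastrocnemius, 17.9 in liver and 1844 in WAT. The transporters *Slc27a2* and *Slc27a5* were liver genes, at 789.7 and 611 CPM there and under 1 CPM elsewhere, and *Slc27a1* was at 42.7 CPM in gastrocnemius, 5.16 in liver and 343 in WAT.
Genes of fatty acid oxidation were mostly within 4-fold, a share not far above that of all genes. Of 19 genes, 13 were within 4-fold in all pairs, against 53.4% of all genes, and the list medians were -0.62, -0.70 and -0.25 for gastrocnemius minus liver, gastrocnemius minus WAT and liver minus WAT. *Hadha*, a subunit of the trifunctional protein, was at 375 CPM in gastrocnemius, 346 in liver and 345 in WAT, and *Acadvl*, the first dehydrogenase for long chains, at 192 CPM in gastrocnemius, 236 in liver and 182 in WAT. The gate to the mitochondrion was not even. *Cpt1b*, the muscle form, was at 343 CPM in gastrocnemius, 0 in liver and 0.706 in WAT, and *Cpt1a* at 17.6 CPM in gastrocnemius, 321 in liver and 92.9 in WAT, and per kilobase *Cpt1a* was 3.33% of the pair in gastrocnemius and 98.9% in WAT. *Ehhadh* and *Acaa1b*, enzymes of the peroxisome, were 4-fold above both others in liver, at 5.88 CPM in gastrocnemius, 299 in liver and 66.3 in WAT and at 0.283 CPM in gastrocnemius, 741 in liver and 50.7 in WAT. Ketone bodies are made in liver and used elsewhere. *Oxct1*, needed to use them, was at 304 CPM in gastrocnemius, 3.01 in liver and 305 in WAT.

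Of 19 genes of cholesterol and bile acids, 9 were 4-fold above both others in liver and 1 in WAT, against 5.12% and 8.22% of all genes. Those of bile acid synthesis and export were far higher in liver, with *Cyp8b1* at 0.302 CPM in gastrocnemius, 220.2 in liver and 0.401 in WAT, the bile salt pump *Abcb11* at 0 CPM in gastrocnemius, 326 in liver and 0.0501 in WAT and the bile salt importer *Slc10a1* at 473 CPM in liver and no count elsewhere. *Hmgcs1*, an early enzyme of cholesterol synthesis, was at 20.8 CPM in gastrocnemius, 25.2 in liver and 141 in WAT, and was the gene 4-fold above both others in WAT, which it was not with TMM factors. *Abca1*, which exports cholesterol to lipoproteins, was at 39.9 CPM in gastrocnemius, 98.6 in liver and 239 in WAT.
Of 22 genes of the respiratory chain and uncoupling, 12 were within 4-fold in all pairs, which is the share of all genes (53.4%), and 5 were 4-fold above both others in gastrocnemius, against 3.92%. The ATP synthase subunit *Atp5b* was at 2404 CPM in gastrocnemius, 1024 in liver and 1727 in WAT, and *Sdha* of complex II at 534 CPM in gastrocnemius, 404 in liver and 480.1 in WAT. The large differences were again between isoforms. *Cox6a2* was at 1039 CPM in gastrocnemius, 0.0478 in liver and 0.101 in WAT and its partner *Cox6a1* at 33.0 CPM in gastrocnemius, 233 in liver and 409 in WAT. The ADP/ATP carrier *Slc25a4* was at 2368 CPM in gastrocnemius, 3.44 in liver and 255 in WAT and *Slc25a5* at 37.1 CPM in gastrocnemius, 313 in liver and 304 in WAT. *Ucp3* was at 141 CPM in gastrocnemius, 0 in liver and 37.7 in WAT, *Ucp2* at 23.5 CPM in gastrocnemius, 22.8 in liver and 252 in WAT, and *Ucp1*, the uncoupling protein of brown fat, had 1 count in WAT and none elsewhere. *Ppargc1a*, a coactivator of mitochondrial genes, was at 64.6 CPM in gastrocnemius, 4.34 in liver and 7.01 in WAT. Of the phosphocreatine genes, mitochondrial creatine kinase (*Ckmt2*) was at 1061 CPM in gastrocnemius, 0 in liver and 0.1002 in WAT, and *Gamt*, which makes creatine, at 12.9 CPM in gastrocnemius, 138 in liver and 51.2 in WAT.

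**Figure D4:**
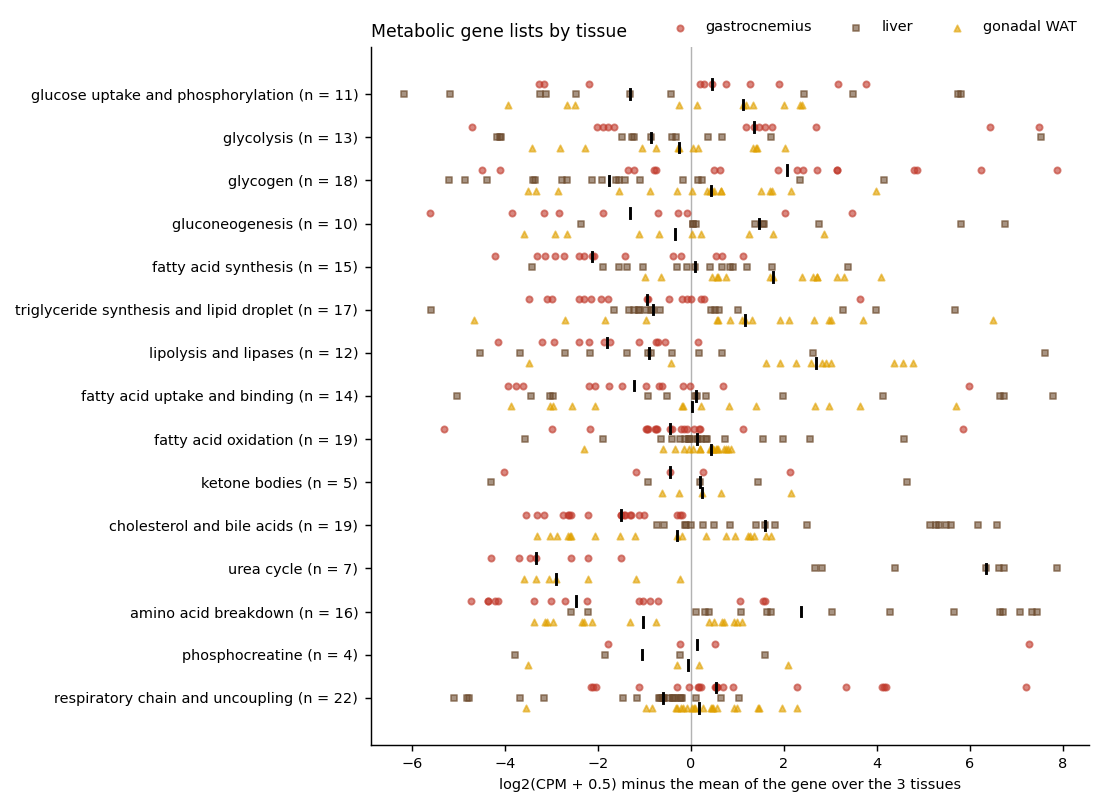
Levels of the genes of 15 metabolic lists in each tissue, as log2(CPM + 0.5) minus the mean of the gene over the 3 vehicle-treated GRf/f libraries. Each point is a gene, n is the number compared, and the black bar is the list median in that tissue. The urea cycle stands highest in liver, lipolysis in WAT and glycogen in gastrocnemius, while fatty acid oxidation stays close to 0 in all 3.

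Nuclear receptors are transcription factors switched by steroid, thyroid, lipid or bile acid ligands. Of 49 on the list, 10 had different kept transcripts, among them *Pparg*, *Hnf4a* and *Nr1h4*, and 7 others were under 1 CPM in all 3 libraries (*Esr2*, *Rorb*, *Vdr*, *Nr2e1*, *Nr2e3*, *Nr5a1* and *Nr0b1*). Of the remaining 32, 12 were within 4-fold in all pairs, against 53.4% of all genes. A further 3 were 4-fold above both others in gastrocnemius, 4 in liver and 1 in WAT, against 3.92%, 5.12% and 8.22%, and 9 were 4-fold below both others in liver against 11.3% of all genes (3 with TMM factors).
The receptors of corticosteroids were among the even ones. The glucocorticoid receptor *Nr3c1* was at 113 CPM in gastrocnemius, 58.02 in liver and 155 in WAT, and the mineralocorticoid receptor *Nr3c2*, which also binds glucocorticoids, at 8.79 CPM in gastrocnemius, 5.04 in liver and 7.04 in WAT. Per kilobase, *Nr3c1* was at 17.8, 9.17 and 24.6 CPM and *Nr3c2* at 1.55, 0.888 and 1.24 CPM in the same order. WAT exceeded liver 2.68-fold (2.51 to 2.87) in *Nr3c1*, which is close to the shift of 2.52-fold that TMM factors make for this pair, and no order of the 3 tissues was read from it. In the GRmKO vehicle pools *Nr3c1* was at 46.4, 60.8 and 158 CPM.
An oestrogen and a thyroid hormone receptor were low in liver. The oestrogen receptor *Esr1* was at 33.4 CPM in gastrocnemius, 6.07 in liver and 59.6 in WAT. *Thra* was at 58.2 CPM in gastrocnemius, 5.64 in liver and 81.6 in WAT, whereas the other thyroid hormone receptor, *Thrb*, was level at 23.97 CPM in gastrocnemius, 26.2 in liver and 26.6 in WAT.
The receptors 4-fold above both others in liver were *Nr1i2*, *Nr1i3*, *Nr0b2* and *Nr5a2*. *Nr1i2* and *Nr1i3*, which sense foreign compounds, were at 48.8 and 51.2 CPM in liver and under 0.2 CPM elsewhere. *Nr0b2*, a repressor in bile acid feedback, was at 0 CPM in gastrocnemius, 23.2 in liver and 0.0501 in WAT, and *Nr5a2* at 0.854 CPM in gastrocnemius, 41.8 in liver and 3.201 in WAT. *Ppara*, the activator of fatty acid oxidation, was at 8.497 CPM in gastrocnemius, 32.4 in liver and 3.86 in WAT, whereas *Ppard* was at 49.0 CPM in gastrocnemius, 6.31 in liver and 49.0 in WAT. The oxysterol receptor *Nr1h3* was at 10.8 CPM in gastrocnemius, 52.8 in liver and 86.1 in WAT, and *Rxra*, the shared partner of these receptors, at 191 CPM in gastrocnemius, 372 in liver and 270.3 in WAT.
The gastrocnemius receptors included *Nr4a1*, an early response receptor without a known hormone, at 418 CPM in gastrocnemius, 0 in liver and 8.48 in WAT, 49.4-fold (42.4 to 57.8) over WAT and at least 2917-fold over liver. It was at 169 CPM in the GRmKO gastrocnemius library. *Esrrb* and *Rarb* were the other gastrocnemius genes, at 6.38 CPM in gastrocnemius, 0.335 in liver and 0.1002 in WAT and 9.09 CPM in gastrocnemius, 1.82 in liver and 0.596 in WAT. The clock repressor *Nr1d1* was at 289 CPM in gastrocnemius, 66.7 in liver and 398 in WAT. In WAT, *Nr2f1* was at 0.417 CPM in gastrocnemius, 0.562 in liver and 12.1 in WAT.

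The partners and targets of the glucocorticoid receptor were mostly within 4-fold, a share not far above that of all genes. Of 13 genes, 9 were within 4-fold in all pairs, against 53.4% of all genes, and the list medians were 1.34, 0.41 and -1.30, beside 0.57, -0.70 and -1.17 for all genes. The chaperone *Hsp90ab1*, which holds the receptor ready to bind, was at 1122 CPM in gastrocnemius, 758 in liver and 921 in WAT. The co-chaperones *Fkbp4* and *Fkbp5* were at 131 CPM in gastrocnemius, 115 in liver and 90.9 in WAT and at 61.9 CPM in gastrocnemius, 47.7 in liver and 141 in WAT. *Tsc22d3*, a direct target, was at 276 CPM in gastrocnemius, 84.1 in liver and 169.9 in WAT. The 2 genes above both others in gastrocnemius were *Fbxo32*, a ubiquitin ligase of muscle wasting, at 287 CPM in gastrocnemius, 2.96 in liver and 18.2 in WAT, and the kinase *Sgk1*, at 259.7 CPM in gastrocnemius, 11.8 in liver and 58.5 in WAT. *Trim63* and *Klf15* had different kept transcripts.
Genes of steroid conversion were mostly highest in liver. Of 12 genes compared, 6 were 4-fold above both others in liver (9 with TMM factors), against 5.12% of all genes. *Serpina6*, the corticosteroid-binding globulin of plasma, and *Akr1d1*, which reduces the steroid ring, were at 284 and 110.1 CPM in liver and had no count elsewhere. *H6pd*, which supplies the cofactor for regenerating active glucocorticoid in the endoplasmic reticulum, was at 51.5 CPM in gastrocnemius, 351 in liver and 604 in WAT. The enzyme that performs this step, *Hsd11b1*, was represented by different transcripts and was not compared, and *Hsd11b2*, which inactivates glucocorticoid, reached 0.952 CPM in WAT and had no count elsewhere. The oestrogen sulfotransferase *Sult1e1* was the gene 4-fold above both others in WAT, at 0.252 CPM in gastrocnemius, 0.191 in liver and 35.8 in WAT. In the GRf/f CORT libraries its log2 difference of liver minus WAT reversed to 4.24.

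Hormone receptors at the cell surface differed from one another in where they were expressed. Of 28 compared, 5 were 4-fold above both others in WAT, 2 in liver and 0 in gastrocnemius, against 8.22%, 5.12% and 3.92% of all genes, so that the counts in liver and gastrocnemius were near the background. Within 4-fold in all pairs were 9, against 53.4%, and the list medians were -1.59 for gastrocnemius minus WAT and -1.10 for liver minus WAT, against -0.70 and -1.17 for all genes.
*Adrb3*, the adrenergic receptor through which catecholamines drive lipolysis, was at 1.27 CPM in gastrocnemius, 0.943 in liver and 509.5 in WAT, 404-fold (274 to 625) over gastrocnemius. *Adrb1* was at 0.302 CPM in gastrocnemius, 0.908 in liver and 8.22 in WAT. *Npr3*, the clearance receptor of natriuretic peptides, was at 5.13 CPM in gastrocnemius, 1.67 in liver and 792 in WAT, while the signalling receptor *Npr1* was at 26.6 CPM in gastrocnemius, 9.08 in liver and 74.8 in WAT. *Mc2r*, the corticotropin receptor, was at 0.252 CPM in gastrocnemius, 0 in liver and 30.6 in WAT.
Glucagon acts mainly on liver, and its receptor *Gcgr* was at 0 CPM in gastrocnemius, 124 in liver and 1.05 in WAT, 118-fold (77.0 to 191) higher in liver than in WAT. Receptors of the incretins were scarce, with *Gipr* at 3.37 CPM in WAT and no count elsewhere, and *Glp1r* without a count in any of the 3. The growth hormone receptor *Ghr* was at 133 CPM in gastrocnemius, 372 in liver and 1158 in WAT, 3.11-fold (3.03 to 3.19) higher in WAT than in liver. The insulin receptor *Insr* was close to even, at 83.1 CPM in gastrocnemius, 61.5 in liver and 111 in WAT, and the IGF-1 receptor *Igf1r* was low in liver, at 27.3 CPM in gastrocnemius, 1.29 in liver and 20.3 in WAT. The adiponectin receptors differed, with *Adipor1* at 353 CPM in gastrocnemius, 108 in liver and 200.4 in WAT and *Adipor2* at 100.4 CPM in gastrocnemius, 337 in liver and 793 in WAT, and per kilobase *Adipor1* was 82.5% of the pair in gastrocnemius, 30.1% in liver and 25.3% in WAT. *Klb*, the coreceptor of FGF21, was at 0.201 CPM in gastrocnemius, 16.9 in liver and 26.7 in WAT. *Lepr* was at 2.86 CPM in gastrocnemius, 1.88 in liver and 4.14 in WAT.
Below the insulin receptor, 7 of 15 signalling genes were within 4-fold in all pairs, near the 53.4% of all genes. *Irs1* was at 39.4 CPM in gastrocnemius, 3.86 in liver and 19.0 in WAT and *Irs2* at 57.9 CPM in gastrocnemius, 15.2 in liver and 99.8 in WAT. *Akt2*, the kinase isoform tied to glucose uptake, was at 184 CPM in gastrocnemius, 65.2 in liver and 442 in WAT. *Pik3r1* and *Pik3cb*, subunits of the lipid kinase, were the genes 4-fold above both others in WAT, which they were not with TMM factors, at 31.9 CPM in gastrocnemius, 43.0 in liver and 227 in WAT and 7.39 CPM in gastrocnemius, 9.24 in liver and 47.1 in WAT. *Tbc1d4*, which holds GLUT4 vesicles back until insulin acts, was at 15.9 CPM in gastrocnemius, 1.11 in liver and 35.8 in WAT.

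Secreted hormones were divided among the tissues, and 1 of 26 compared was within 4-fold in all pairs (3 with TMM factors), against 53.4% of all genes. Of these 26, 9 were 4-fold above both others in liver, 4 in WAT and 2 in gastrocnemius, against 5.12%, 8.22% and 3.92% of all genes. With TMM factors these counts were 13, 3 and 2. In gastrocnemius 9 were 4-fold below both others, against 4.03%. *Hamp*, the iron hormone hepcidin, was at 0 CPM in gastrocnemius, 534 in liver and 0.451 in WAT. *Igf1*, through which growth hormone acts, was at 28.5 CPM in gastrocnemius, 295 in liver and 249.7 in WAT, and 10.3-fold (9.49 to 11.3) higher in liver than in gastrocnemius. Its binding protein *Igfbp2* was at 0.504 CPM in gastrocnemius, 390.1 in liver and 7.42 in WAT, and *Igfbp1* at 37.8 CPM in liver with no count elsewhere. *Rbp4*, the carrier of vitamin A, was at 3.29 CPM in gastrocnemius, 2541 in liver and 684 in WAT. *Agt*, the precursor of angiotensin, was at 14.6 CPM in gastrocnemius, 567 in liver and 300.4 in WAT. *Angptl4*, an inhibitor of lipoprotein lipase, was at 2.06 CPM in gastrocnemius, 74.9 in liver and 333 in WAT. From gastrocnemius, *Fndc5*, the precursor of irisin, was at 98.6 CPM in gastrocnemius, 0.0956 in liver and 3.31 in WAT, and *Erfe*, erythroferrone, at 3.05 CPM in gastrocnemius, 0 in liver and 0.0547 in WAT. *Fgf21*, a stress hormone of liver and muscle, was at 0 CPM in gastrocnemius, 0.0955 in liver and 0.401 in WAT and was not counted. *Mstn*, the muscle growth inhibitor myostatin, had different kept transcripts.

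**Figure D5:**
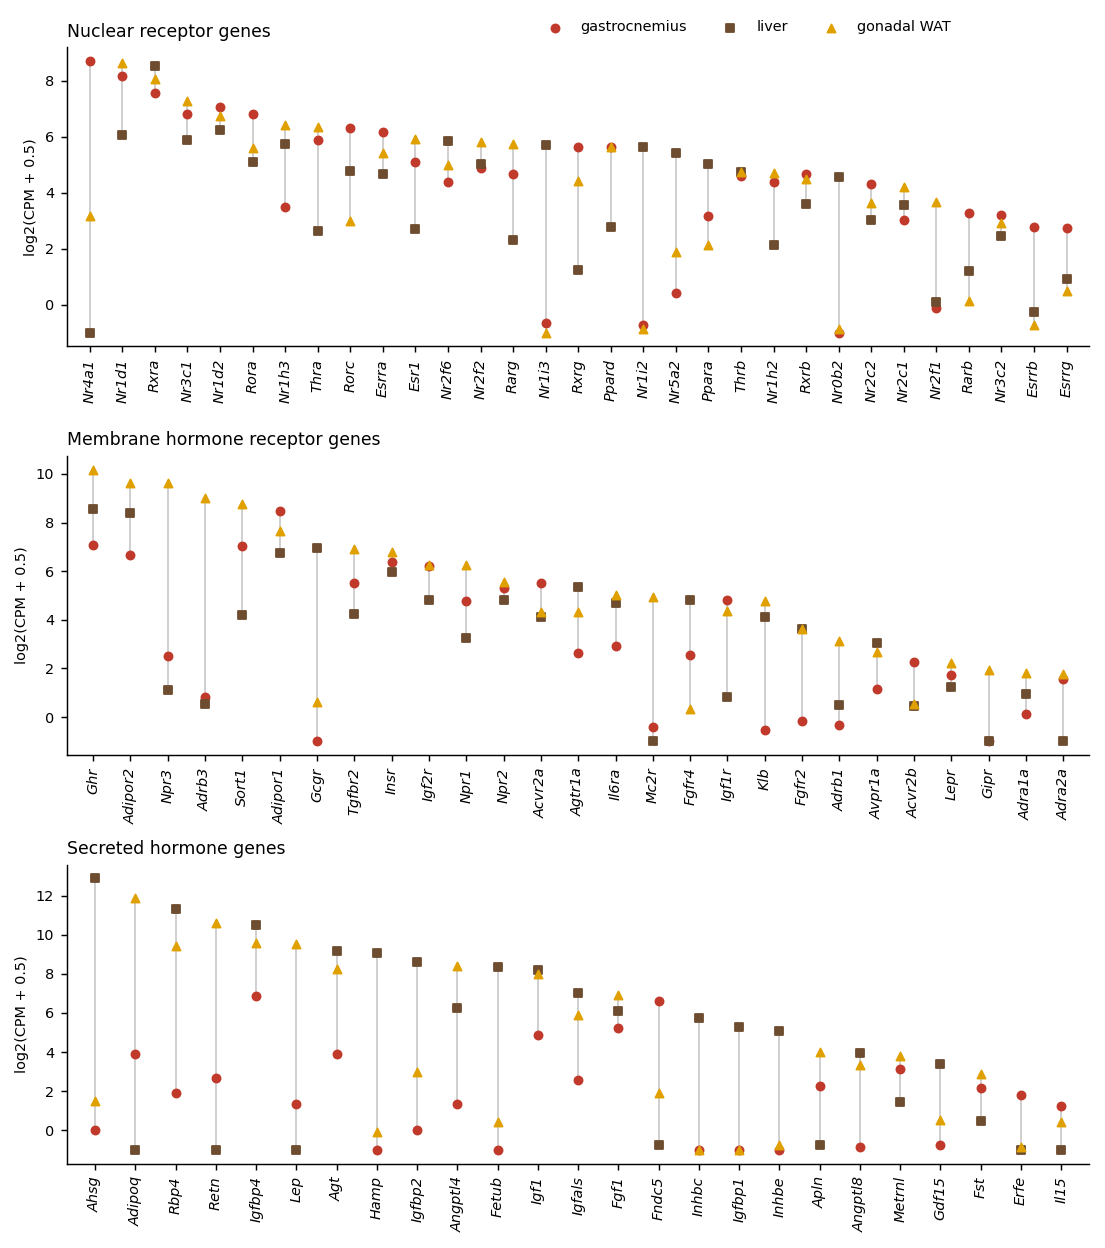
Levels of 31 nuclear receptor, 27 membrane hormone receptor and 25 secreted hormone genes as log2(CPM + 0.5) in the vehicle-treated GRf/f library of each tissue (1 point per library, grey line from lowest to highest). Thrb, Nr3c2 and Insr lie close together, while Nr4a1, Adrb3, Npr3, Gcgr, Ahsg and Adipoq are far apart.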

How the data were processed

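RNA of 3 mice per group was pooled into 1 paired-end library for each of 12 tissue, genotype and treatment groups, and the 3 GRf/f vehicle libraries were compared. Per the study's methods and the submitters' processing notes, the authors quantified reads with Salmon 1.2.1 against GENCODE M20 protein-coding transcripts (GRCm38) and R 3.5.0, and deposited length-scaled estimated counts with 1 transcript kept per gene name. Each tissue was processed separately, so the kept transcript and the length factor can differ between tissues. Whether a deposited value is that of the kept transcript alone or of its gene was not settled, so lengths and values per kilobase refer to the kept transcript.

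CPM was computed from the deposited expected counts and each library's total (19833928, 20940660 and 19957071 counts), for gene symbols with the same transcript in all 3 tissues and at least 1 CPM in 1 library. Genes were called at 4-fold on log2(CPM + 0.5). With 1 library per group no test of the main differences is possible. Positions and lengths come from GENCODE M21 on the same build, and promoters from RefSeq. Genes named are members of 35 lists holding 565 genes, of which 468 had the same transcript and 446 were counted, first the 2 to 4 of a list that differ most and those that differ least, plus the most abundant and most different genes of each tissue and the most abundant even genes. Members and lists were chosen with earlier results of these data known, and some genes were named for their function. Alternatives were other folds, pseudocounts, filters and scalings, the GRmKO vehicle and GRf/f CORT libraries, a simulated-replicate method (NOISeq-sim), and edgeR 4.0.16 (quasi-likelihood test) and DESeq2 1.42.0 in R 4.3.3 on rounded counts of the 6 vehicle libraries, in which the GRmKO library served as the second sample of its tissue. The procedures were tested on simulated data. Python 3.11.15 with numpy 2.4.6, pandas 2.3.3 and scipy 1.17.1 was used. Some list members counted in the totals are not reported here by name.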

Additional observations from a re-analysis of the deposited data

How the results depend on the processing

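At a limit of 2-fold, 6496 genes differed between gastrocnemius and liver, 5869 between gastrocnemius and WAT and 7779 between liver and WAT, with 974 above both others in gastrocnemius and 3263 in WAT. At 10-fold these counts were 1567, 832, 1648, 269 and 234. With TMM factors 938 genes stood above both others in liver and 378 in WAT, and with median-of-ratios factors 937 and 384. NOISeq-sim gave 4459 genes for gastrocnemius against WAT, 5791 for liver against WAT, 1008 above both others in gastrocnemius and 2356 in WAT. Other pseudocounts, filters, per-length values and the use of any transcript kept the counts within 1.5 times, as did the GRmKO vehicle and GRf/f CORT libraries. Omitting the filter gave equal counts by construction, since a gene under 1 CPM cannot reach 4-fold after 0.5 is added. In the 6 vehicle libraries, edgeR's quasi-likelihood test gave 7533, 6300 and 9089 genes for the pairs at a Benjamini-Hochberg adjusted p under 0.05, and 3724, 2218 and 4394 when a fitted change of at least 4-fold was also required. DESeq2 with both limits gave 3777, 2284 and 4458.
Of named differences, that of *Alb* between gastrocnemius and WAT reversed in the GRmKO vehicle libraries (log2 difference 0.057). In the GRf/f CORT libraries the log2 difference of liver minus WAT reversed for *Fndc5* (0.23), *Igfbp2* (-0.79), *Sult1e1* (4.24) and *Vsig4* (-0.72). The cause was not tested. No paired analysis was possible because each group has 1 library. For the same reason no library could be left out of the main comparison. Depth limits genes near 3 counts, and the pooling hides the spread between mice.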

Other observations

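Several of the largest differences were in genes outside the lists, chosen here after their values were seen. *Ampd1*, the muscle form of AMP deaminase, was at 1397 CPM in gastrocnemius, 0 in liver and 0 in WAT, and *Eef1a2*, a translation elongation factor of muscle and nerve, was at 2062 CPM in gastrocnemius, 0 in liver and 0.325 in WAT. In liver the major urinary proteins stood out, with *Mup7* at 2.34 CPM in gastrocnemius, 34732 in liver and 1.38 in WAT, although these genes are near-identical and their reads may be shared. *Gc*, the plasma carrier of vitamin D, was at 0.796 CPM in gastrocnemius, 4844 in liver and 0.625 in WAT. In WAT, *Hcar1*, the lactate receptor, was at 0.503 CPM in gastrocnemius, 0 in liver and 151 in WAT, and *Phgdh*, the first enzyme of serine synthesis, was at 5.04 CPM in gastrocnemius, 0.143 in liver and 546 in WAT. *Hoxc8*, a homeobox gene of body position, was at 1.01 CPM in gastrocnemius, 0.0478 in liver and 155 in WAT. At the other extreme, 179 genes lay within a ratio of 5 to 4 in all pairs. The most abundant were *mt-Atp6* at 26545 CPM in gastrocnemius, 24222 in liver and 22563 in WAT and *mt-Nd3* at 1912, 1548 and 1775 CPM. *Rps2* followed at 609.8 CPM in gastrocnemius, 541 in liver and 645 in WAT. TMM factors shift ratios of WAT over liver 2.52-fold, so the evenness of these genes holds for CPM only.

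Genes set aside because the kept transcript differed included abundant ones. Of symbols at 10 CPM or more in both tissues, 295 (6.47%) had different transcripts in gastrocnemius and liver, 390 (6.10%) in gastrocnemius and WAT and 207 (3.98%) in liver and WAT. For *Tpm1*, tropomyosin 1, a transcript of 1208 bases was kept in gastrocnemius (16268 CPM) and one of 1607 bases in liver (10.3 CPM) and WAT (58.1 CPM), with coding lengths of 852 and 744 bases. For *Aldoa*, aldolase A, the kept transcripts were of 1460 bases in gastrocnemius (7877 CPM) and 1511 bases in liver (90.1 CPM) and WAT (1630.4 CPM), and the coding length was 1092 bases in each.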
